A study of Homo sapiens with 34 samples.

Results

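The sirtuins are a family of 7 genes, SIRT1 to SIRT7, and each was found as 1 row of the 28690 loci for which expression was measured, by its symbol in the annotation. All 7 were among the 14678 loci taken as expressed, which are those with a mean of at least 0.7 FPKM (fragments counted for a locus, scaled to transcript length and library size) over 24 RNA-seq libraries. The cells were human U2OS osteosarcoma cells with a stable *Bmal1*:*luc* reporter, and they were treated with 5 mM 6AN (6-aminonicotinamide) or with DMSO as a control. 6AN is converted in cells to an analog of NADP+ and inhibits the NADPH-producing enzymes of the pentose phosphate pathway. RNA was sequenced at 12 time points labelled 0 to 44 hr, every 4 hr, with 1 library for each condition and time point, and chromatin was immunoprecipitated with antibodies to BMAL1, CLOCK, H3K9ac and H3K4me3 after 24 hr, with 1 library for each antibody and condition plus an input. All libraries came from 1 reporter line, and all RNA-seq cells were synchronized with dexamethasone.

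Sirtuins remove acetyl and other acyl groups from lysines and consume NAD+ in each reaction, so that their activity is tied to the supply of this cofactor. SIRT1, SIRT6 and SIRT7 act mainly in the nucleus, SIRT2 acts mainly in the cytosol, and SIRT3, SIRT4 and SIRT5 act in mitochondria. SIRT1 is known in the circadian field because it deacetylates BMAL1 and PER2 and because the NAD+ it uses is made by NAMPT, an enzyme under clock control. In the deposited hg38 annotation SIRT1 lies at chr10:67884669-67918390, SIRT2 at chr19:38878555-38908894, SIRT3 at chr11:207511-236362, and SIRT4 at chr12:120302321-120313242. SIRT5 lies at chr6:13574529-13615158, SIRT6 at chr19:4174109-4182599, and SIRT7 at chr17:81911939-81918182, and FPKM refer to these whole loci. Messenger RNA levels, which are what was measured here, do not give the activity of these enzymes.

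The promoter sequences are shown because binding of clock factors is compared at them below. RefSeq promoter windows (GRCh38.p14, the build of the deposited coordinates being hg38) were matched for 6 of the 7 genes, and SIRT7 was not matched. They were searched for the E-box CACGTG, which BMAL1/CLOCK bind, for its variant CACGTT on both strands, and for the NRF2 element TGACNNNGC on both strands, and no matches overlapped each other. SIRT4, SIRT5 and SIRT6 each had 2 windows, for different starts. The SIRT1 window held 2 E-boxes, at positions -123 to -118 and -44 to -39 from the start, whereas 7.26% of 35116 windows of 300 bases held at least 1 E-box and 0.664% held at least 2. 1 SIRT6 window held 1 NRF2 element, 1 SIRT4 window held 1 E-box variant, and the windows of SIRT2, SIRT3 and SIRT5 held none of the motifs. The NRF2 element was present in 13.3% and the E-box variant in 5.34% of all windows. The 250 bases before the start are printed 5′ to 3′ for the gene with both E-boxes (SIRT1, chr10:67884406-67884655, plus strand), for SIRT2 (chr19:38899619-38899868, minus strand), and for SIRT6 (chr19:4182564-4182813, minus strand), with E-boxes or the NRF2 element in capitals.
SIRT1: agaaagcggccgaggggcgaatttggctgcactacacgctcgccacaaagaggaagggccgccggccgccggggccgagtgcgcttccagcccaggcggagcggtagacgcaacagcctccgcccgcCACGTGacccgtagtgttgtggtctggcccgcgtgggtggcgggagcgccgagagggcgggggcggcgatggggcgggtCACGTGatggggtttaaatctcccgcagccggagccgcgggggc
SIRT2: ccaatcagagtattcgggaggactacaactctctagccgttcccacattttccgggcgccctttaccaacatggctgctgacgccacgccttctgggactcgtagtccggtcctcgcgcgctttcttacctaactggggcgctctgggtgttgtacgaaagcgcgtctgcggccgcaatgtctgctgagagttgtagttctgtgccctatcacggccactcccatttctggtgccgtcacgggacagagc
SIRT6: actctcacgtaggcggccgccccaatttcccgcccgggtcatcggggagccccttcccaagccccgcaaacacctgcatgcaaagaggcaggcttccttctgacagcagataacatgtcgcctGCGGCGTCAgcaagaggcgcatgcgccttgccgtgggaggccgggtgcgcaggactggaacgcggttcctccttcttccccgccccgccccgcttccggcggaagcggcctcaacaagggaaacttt

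Library quality and cell identity were checked first. Total FPKM ranged from 975321 to 1089300 in control and from 1080810 to 1281610 in 6AN. Depth relative to the other libraries of the same condition was estimated from the steps between low values. It ranged from 0.58 to 1.31 in control and from 0.70 to 1.55 in 6AN, and is not comparable between conditions. The shallowest control library was that of 4 hr, and the total number of reads is unknown. Of 8 genes of the osteoblast lineage 6 were expressed, with the bone collagen gene COL1A2 and the sialoprotein gene IBSP at or near 0, and their summed level was 428 to 581 FPKM in control and 140 to 313 FPKM in 6AN. Markers of blood, epithelial, endothelial and liver cells summed to at most 2.26 FPKM in any library, with 1 of 4 expressed. Most of the osteoblast lineage sum came from SPARC and COL1A1. The median was 325 FPKM in control and 126 FPKM in 6AN for SPARC, and 129 and 29.01 FPKM for COL1A1. The medians of RUNX2 were 13.3 and 13.8 FPKM, those of BGLAP were 23.2 and 22.2 FPKM, and those of SPP1 were 2.04 and 3.81 FPKM. The part of these markers in the values below was not tested. In bulk RNA, a change in the level per cell and in the number of cells that express a gene cannot be told apart.

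How do the 7 sirtuins compare within a library? SIRT7, a nucleolar enzyme linked to ribosomal RNA transcription, had the highest level in both conditions, with 28.3 ± 2.24 FPKM in control and 29.5 ± 2.99 FPKM in 6AN (SD, n = 12). In control SIRT2, SIRT1 and SIRT6 followed with 13.7, 12.7 and 12.2 FPKM, and SIRT3, SIRT5 and SIRT4 were lowest with 6.17, 2.35 and 2.06 FPKM. In 6AN the order was SIRT7, SIRT1, SIRT2, SIRT6, SIRT3, SIRT5 and SIRT4. Neighbours in this order were compared within libraries by an exact two-sided sign-flip permutation test on log2(FPKM + 1), adjusted over 12 tests, and 7 of 12 pairs of neighbours were separated, each with the same direction in 12 of 12 libraries and with p = 0.000488, the smallest that this exact test can give (adjusted p = 0.000837). In control, SIRT2 and SIRT1 (adjusted p = 0.0873, exact test), SIRT1 and SIRT6 (adjusted p = 0.538, exact test), and SIRT5 and SIRT4 (adjusted p = 0.0873, exact test) were not separated. In 6AN, SIRT1 and SIRT2 (adjusted p = 0.538, exact test) and SIRT5 and SIRT4 (adjusted p = 0.0873, exact test) were not separated, but SIRT2 exceeded SIRT6 by 0.68 ± 0.18 on the log2 scale (SD, n = 12). The number of separated pairs was 9 without the 24 hr libraries and 8 without those of 16 hr or of 32 hr. The time points of a condition are a series and not repeats of it, so the SD contains any change with time.

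**Figure D1:**
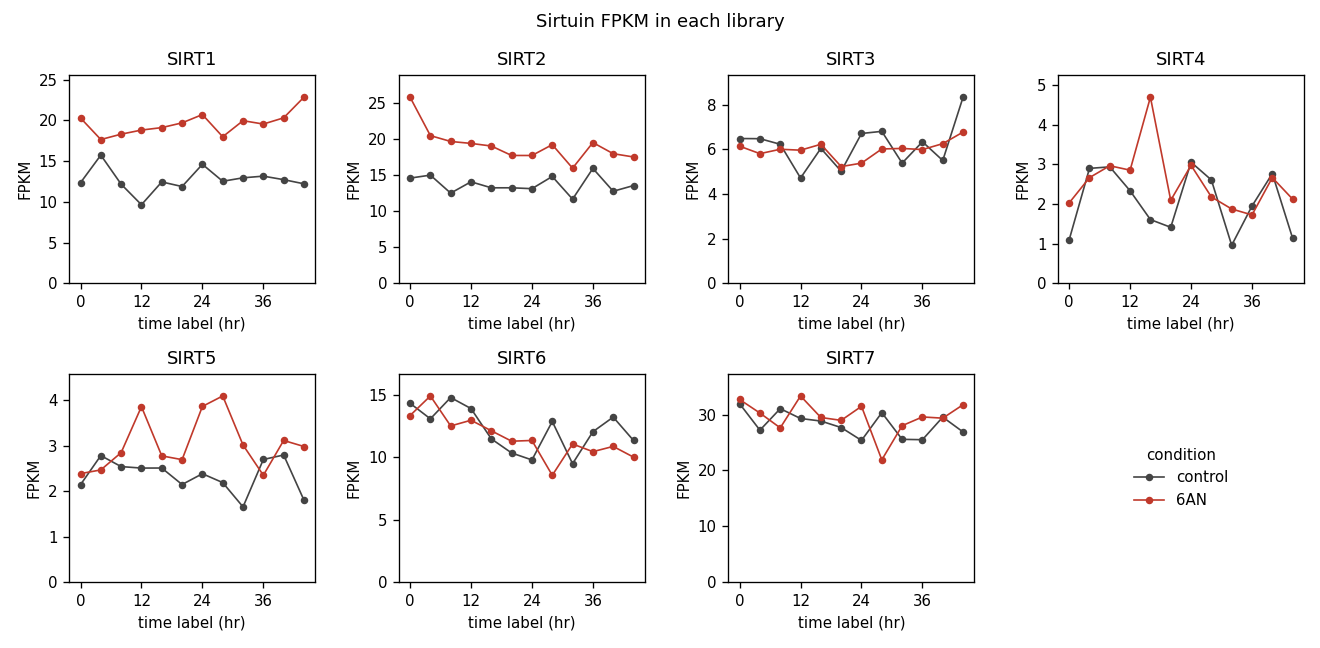
FPKM (y axis, from 0) of each sirtuin against the time label in hr (x axis), with 1 point per library for control (grey) and 6AN (red). The 6AN values of SIRT1 and SIRT2 lie above all control values, whereas the values of the other 5 genes overlap.

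Was the level of any sirtuin different in 6AN? SIRT1 and SIRT2 were higher in 6AN at 12 of 12 time points, the other 5 sirtuins were not, and 0 of 7 were lower at all time points. Among expressed loci, 12.6% were higher and 19.8% were lower at all 12 time points. The FPKM tables of the conditions were normalized separately by the authors, so these values are a description without a test.

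SIRT1 was measured in control at 9.65 FPKM in the lowest, 12.5 FPKM at the median, and 15.7 FPKM in the highest library, and in 6AN at 17.7, 19.6 and 22.8 FPKM. The lowest 6AN library was therefore above the highest control library. The mean was 12.7 ± 1.47 FPKM in control and 19.6 ± 1.41 FPKM in 6AN (SD, n = 12), a ratio of means of 1.54. The mean log2 ratio of FPKM + 1 was 0.59 ± 0.19 (SD over 12 time points), which was higher than that of 94.7% of expressed loci. It was lowest at 4 hr with 0.16 and highest at 12 hr with 0.89. The 4 hr control library was the shallowest of the control libraries and also had their highest SIRT1 value. Without the 4 hr libraries the mean was 0.63.

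SIRT2, which deacetylates tubulin among other proteins, was measured in control at 11.7 FPKM in the lowest, 13.4 FPKM at the median, and 15.92 FPKM in the highest library. In 6AN the lowest library had 15.96 FPKM, the median was 19.1 FPKM, and the highest library had 25.8 FPKM. The groups therefore did not overlap, but by a margin far smaller than the SD of either group. The mean was 13.7 ± 1.21 FPKM in control and 19.2 ± 2.42 FPKM in 6AN (SD, n = 12), with a ratio of means of 1.40 and a mean log2 ratio of 0.45 ± 0.13. The highest ratio, 0.78, was at 0 hr. The SIRT2 locus overlaps that of NFKBIB, which encodes an inhibitor of NF-kB, and NFKBIB had a mean log2 ratio of 0.18 and was higher in 9 of 12 time points. How reads were divided between these overlapping loci was not tested. Of all expressed loci, 5.66% had every 6AN value above every control value, as SIRT1 and SIRT2 did, also after each library was set to a common median.

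**Figure D2:**
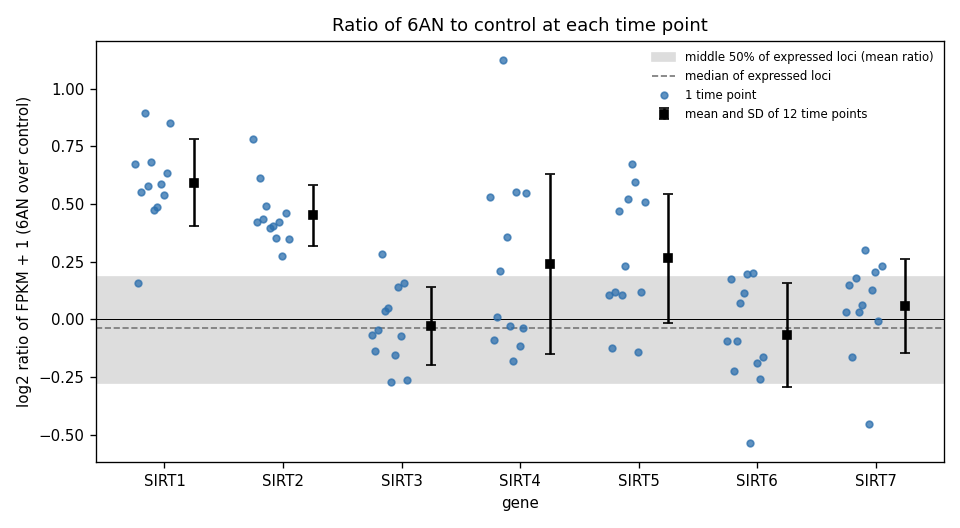
Log2 ratio of FPKM + 1 of 6AN over control (y axis) for each sirtuin (x axis), with 1 blue point per time point and the mean and SD of 12 time points in black. The grey band holds the middle 50% of the mean ratios of expressed loci, and the means of SIRT1 and SIRT2, 0.59 and 0.45, lie above it.

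The mitochondrial sirtuins overlapped between conditions and had the lowest levels of the family. SIRT3, the main mitochondrial deacetylase, had 6.17 ± 0.96 FPKM in control and 5.98 ± 0.40 FPKM in 6AN (SD, n = 12), with 5 time points higher and 7 lower. Its locus overlaps that of RIC8A, a G protein chaperone that was lower at 12 of 12 time points with a mean log2 ratio of -0.32, and that of the microRNA gene MIR6743. SIRT4, known for ADP-ribosylation and removal of bulky acyl groups, ranged from 0.96 to 3.05 FPKM in control and from 1.73 to 4.69 FPKM in 6AN, and was higher in 6AN at 7 time points. SIRT5, which removes succinyl, malonyl and glutaryl groups, ranged from 1.66 to 2.80 FPKM in control and from 2.35 to 4.10 FPKM in 6AN, and was higher at 10 time points with a mean log2 ratio of 0.27 ± 0.28. The CV over libraries was 38.5% in control and 31.0% in 6AN for SIRT4, 15.7% and 19.7% for SIRT5, and 15.5% and 6.66% for SIRT3, the last being the lowest of the 7 genes in 6AN. The median over expressed loci was 11.98% in control and 13.4% in 6AN.

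The other nuclear sirtuins were near the centre of the expressed loci. SIRT6, which deacetylates histone H3 at telomeres and at promoters, had 12.2 ± 1.76 FPKM in control and 11.6 ± 1.68 FPKM in 6AN (SD, n = 12), and was higher at 5 and lower at 7 time points. SIRT7 had a mean log2 ratio of 0.06 ± 0.20 and was higher at 9 time points. The median of the 7 mean log2 ratios was 0.24, and that of all expressed loci was -0.04, while 5 of 7 sirtuins and 45.3% of expressed loci had a mean ratio above 0. The family median is the value of SIRT4, and it was 0.16 without the 16 hr libraries and 0.11 with the median over time points in place of the mean.

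With these differences, the make-up of the sirtuin messenger RNA differed between the conditions. The summed level was 77.5 ± 4.79 FPKM in control and 91.5 ± 5.77 FPKM in 6AN (SD, n = 12). SIRT1 made up 16.4 ± 2.0% of this sum in control and 21.5 ± 1.70% in 6AN, and SIRT2 made up 17.7 ± 1.30% and 20.9 ± 2.07%. SIRT7 had the largest share in both, with 36.5 ± 2.20% and 32.2 ± 1.83%, and the share of SIRT6 was 15.7 ± 1.57% and 12.7 ± 1.41%. Shares depend on each other, so a larger share of SIRT1 and SIRT2 goes with smaller shares of others at the same level.

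**Figure D3:**
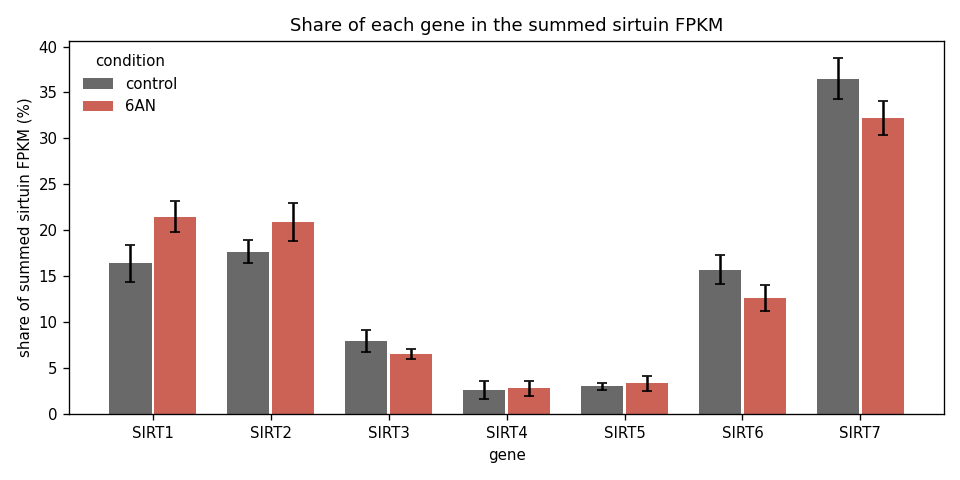
Share in percent of the summed sirtuin FPKM (y axis, from 0) for each gene (x axis) in control (grey) and 6AN (red), with bars for the mean and error bars for the SD of 12 libraries. SIRT1 has 16.4% in control and 21.5% in 6AN, and SIRT7 has 36.5% and 32.2%.

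Was any sirtuin rhythmic? A permutation rank test against umbrella shapes with a period of 24 hr, built after the RAIN algorithm, called 0 of 7 in control and 0 of 7 in 6AN at p of at most 0.01, where 0.947% and 0.988% of expressed loci were called. At an unadjusted p of at most 0.05 it also called 0 in each condition. The smallest permutation p was 0.320 in control, for SIRT3, and 0.0658 in 6AN, for SIRT1, and the cosine fit in limma called 0 sirtuins at p of at most 0.01, with smallest p-values of 0.201 and 0.126. The clock gene ARNTL, which encodes BMAL1, had a permutation p of 0.000139 in control and 0.0112 in 6AN. That of NR1D1, a repressor of ARNTL, was 0.00611 and 0.0163. In 6AN, neither of these clock genes passed 0.01 in the permutation test, whose shapes had a fixed period of 24 hr. The paper reports prolonged clock gene periods under this drug. With RAIN itself at the same threshold, it detected both genes as rhythmic in both conditions. It also called more transcripts in each condition than the permutation test did here. The shares of expressed loci called by the permutation test were also close to the share that a threshold of 0.01 gives by chance. It called 139 loci in control and 145 in 6AN. The cosine fit, also with a fixed period of 24 hr, called 119 and 137 loci at this threshold. Neither test can therefore exclude rhythmic sirtuins in either condition. The cosine fit gave ARNTL and NR1D1 limma p-values of 9.82e-06 and 0.00049 in 6AN. The permutation p of PER2 was 0.212 in control and 0.0144 in 6AN, and that of NAMPT was 0.320 and 0.828. After adjustment over all expressed loci, the permutation test and the cosine fit in limma each called 0 loci in either condition, whereas 735 loci in control and 624 in 6AN had an unadjusted permutation p under 0.05.

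Did any sirtuin change over the series? SIRT6 in 6AN was measured at 13.3, 14.9, 12.5, 13.0, 12.1 and 11.3 FPKM at the first 6 time points and at 11.3, 8.55, 11.1, 10.4, 10.9 and 10.002 FPKM at the last 6. The means of these groups were 12.8 ± 1.23 and 10.4 ± 1.01 FPKM (SD, n = 6). SIRT6 fell by 0.29 ± 0.07 per 24 hr on the log2(FPKM + 1) scale in 6AN (SE, limma with cosine and sine terms, 95% interval -0.44 to -0.14, adjusted p = 0.0106). This was 1 of 7 sirtuins called as falling in 6AN, near the 12.2% of expressed loci called as falling. A further 10.3% of expressed loci were called as rising. In control, the slope of SIRT6 was -0.17 ± 0.09 (SE, limma adjusted p = 0.366) and 0 of 7 sirtuins were called, at a background of 2.77% falling and 2.55% rising. Without adjustment, the smallest limma p in control was above 0.05 for the 7 genes. The difference between the slopes of the conditions was not tested. SIRT2 in 6AN had a slope of -0.19 ± 0.07 (SE, limma adjusted p = 0.0647) and was highest in the 0 hr library, without which the slope was -0.10 (limma adjusted p = 0.285).

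Which loci had the pattern most like each sirtuin? Likeness was taken as Pearson's r of log2(FPKM + 1) over 24 libraries after the mean of each condition was removed, and it is a description, since these values share libraries and depth. For SIRT6 it was highest for GLRX5, an iron-sulfur cluster protein, with 0.85, followed by EPN1 (0.85) and INPP5E (0.80). For SIRT2 the first was PSMB3, a proteasome subunit, with 0.80, followed by CNOT3 and DDR1 (0.79 each). For SIRT1 the first was ANAPC1, a subunit of the anaphase-promoting complex, with 0.74, followed by TPTE (0.71) and MTMR6 (0.70). For SIRT7 these were TSC22D4, DHX30 and KEAP1 (0.75, 0.73 and 0.73), for SIRT3 ATP2A1-AS1 and ZBTB34 (0.71 and 0.69), for SIRT4 SLC22A23 and TIGD2 (0.74 and 0.69), and for SIRT5 ZNF641, DNAJC22 and LSM6 (0.74, 0.70 and 0.67). Among the sirtuins themselves, r was highest for SIRT6 with SIRT7 (0.69).

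The enzymes that make or use NAD+, the cofactor of the sirtuins, were described next. Of 14 expressed genes of 17, 3 were higher at all 12 time points and 5 were lower, with a median log2 ratio of 0.18, where 12.6% of expressed loci were higher and 19.8% were lower at all of them. NAMPT, the rate-limiting enzyme of NAD+ salvage, was higher at 12 of 12 time points but overlapped between conditions, with 21.6 ± 1.96 FPKM in control and 25.5 ± 2.21 FPKM in 6AN (SD, n = 12), and NADK2, the mitochondrial NAD kinase, and NNMT, which methylates nicotinamide, were the others. QPRT, which feeds quinolinate into NAD+ synthesis, had 34.5 ± 5.99 FPKM in control and 16.4 ± 2.82 FPKM in 6AN, a mean log2 ratio of -1.02. The NAD+-consuming polymerases PARP1 and PARP2 had mean log2 ratios of -0.52 and -0.63, and with NNT and NADK they were lower at all 12 time points. Over time in 6AN, where 10.3% of expressed loci rose and 12.2% fell, NNMT rose by 0.39, NADSYN1 by 0.25 and NAMPT by 0.18 per 24 hr on the log2 scale (limma adjusted p = 0.000111, 0.00442 and 0.0126), whereas QPRT fell by 0.29 and PARP2 fell by 0.22 (limma adjusted p = 0.041 and 0.029). In control, where 2.55% of expressed loci rose, NADK2 rose by 0.22 (limma adjusted p = 0.0354).

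Genes that act on SIRT1 did not share 1 direction. Of 9 expressed genes of 10, 2 were higher and 4 were lower at all 12 time points, against 12.6% and 19.8% of expressed loci, with a median log2 ratio of -0.13. CSNK2A2, a catalytic subunit of casein kinase II, had 36.4 ± 2.69 FPKM in control and 63.8 ± 4.62 FPKM in 6AN (SD, n = 12), and DYRK1A, a kinase that phosphorylates SIRT1, had 4.91 ± 0.54 and 6.51 ± 0.61 FPKM, with no overlap for either, as for 5.66% of expressed loci. CCAR2, an inhibitor of SIRT1, and RPS19BP1, an activator, had mean log2 ratios of -0.29 and -0.33, and ELAVL1, which binds SIRT1 messenger RNA, and SENP1 were also lower at all time points. CSNK2A1, the other catalytic subunit, rose over time by 0.22 in control and 0.20 in 6AN per 24 hr (limma adjusted p = 0.0111 and 0.0209). Among expressed loci, 2.55% rose in control and 10.3% rose in 6AN.

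Among 8 expressed genes of 10 whose products sirtuins deacylate in the nucleus or cytosol, the transcription factors FOXO1 (mean log2 ratio 0.42) and FOXO3 (0.31) were higher at all 12 time points without overlap and 0 were lower at all of them, with a median of 0.10 for the list. Among expressed loci 12.6% were higher at all time points, 5.66% were higher without overlap, and 19.8% were lower at all time points. The clock gene PER2 had a mean log2 ratio of 0.44 ± 0.49 and was higher at 10 of 12 time points. RELA, a subunit of NF-kB, fell by 0.18 per 24 hr in 6AN (limma adjusted p = 0.0179), where 12.2% of expressed loci fell. Of 10 expressed genes of 12 for mitochondrial targets, 0 were higher and 2 were lower at all time points, the latter being near the 19.8% of all expressed loci, with a median log2 ratio of -0.13. PPIF, the cyclophilin of the permeability transition pore, and the respiratory complex I subunit NDUFA9 were the lower ones, with mean log2 ratios of -0.53 and -0.20. IDH2, which makes NADPH in mitochondria, had a mean log2 ratio of -0.49 ± 0.47 and fell by 0.62 per 24 hr in 6AN (limma adjusted p = 0.00431). SOD2, the mitochondrial superoxide dismutase, rose by 0.28 in control and by 0.23 in 6AN (limma adjusted p = 0.00457 and 0.0301). Of the 10 expressed mitochondrial targets, 1 rose and 1 fell in 6AN, near the 10.3% and 12.2% of expressed loci. In control, 2.55% of expressed loci rose.

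The zinc-dependent deacetylases, which do not use NAD+, were taken for comparison. Of 10 expressed genes of 11, 4 were higher and 2 were lower at all 12 time points, against 12.6% and 19.8% of expressed loci, and the median log2 ratio was 0.22. HDAC9 had 8.76 ± 0.79 FPKM in control and 18.3 ± 1.87 FPKM in 6AN, and HDAC5 had 14.4 ± 0.92 and 23.7 ± 2.89 FPKM (SD, n = 12). Both were higher without overlap, as were 5.66% of expressed loci, whereas HDAC7 and HDAC10 overlapped. HDAC2 and HDAC3 were lower at all time points, with mean log2 ratios of -0.24 and -0.35, and HDAC8 was lower at 11 of 12 with -0.47. Over time in 6AN, with 10.3% of expressed loci rising and 12.2% falling, HDAC9 rose by 0.16 and HDAC5, HDAC6 and HDAC7 fell by 0.22, 0.23 and 0.29 per 24 hr (limma adjusted p = 0.0326, 0.0224, 0.0421 and 0.002).

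**Figure D4:**
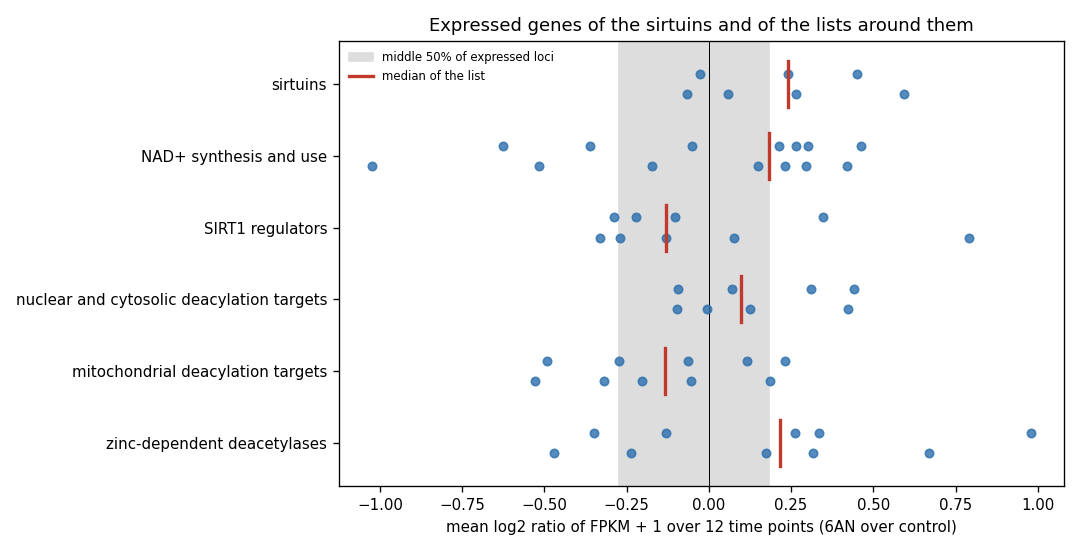
Mean log2 ratio of FPKM + 1 of 6AN over control (x axis) of each expressed gene (blue points) for the sirtuins and the 5 gene lists (y axis), with the median of each list in red and the middle 50% of expressed loci in grey. The median is 0.24 for the sirtuins and -0.13 for mitochondrial targets.

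Were BMAL1 and CLOCK found at the sirtuin genes? Peaks called separately in each library were counted within 5 kb of each locus. In control, 1 of 7 sirtuins had a BMAL1 peak and 0 had a CLOCK peak, against 14% and 2.11% of expressed loci. In 6AN, 3 had a BMAL1 peak and 2 had a CLOCK peak, against 19.2% and 8.96% of expressed loci. SIRT1 was the 1 sirtuin with peaks of both factors in 6AN, and it was also the 1 with a BMAL1 peak in control. The joined SIRT1 peak at chr10:67884439-67884662 spans both E-boxes printed above and has a HOMER peak score of 33.3. SIRT2 had a CLOCK peak in 6AN at chr19:38899968-38900168, centred at -450 bases from the RefSeq start, inside the deposited locus. That locus extends past the RefSeq start of SIRT2 and overlaps that of NFKBIB, and which gene the peak belongs to was not tested. SIRT6 had a BMAL1 peak in 6AN at chr19:4182569-4182769, which lies within the printed window and spans the NRF2 element, and SIRT7 had 2 BMAL1 peaks in 6AN, at chr17:81911157-81911357 and chr17:81918129-81918329. The peak lists of 6AN were longer, with 2314 BMAL1 and 1369 CLOCK peaks against 1577 and 289 in control.

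The deposited list of 439 shared BMAL1/CLOCK sites of 6AN held 1 site at SIRT1 and 0 at the other sirtuins. The list of 147 sites of control held 0 at any of the 7. The share of expressed loci with a shared site was not computed, so these counts have no background. The SIRT1 site, at chr10:67884058-67885058, was annotated as a promoter. Its centre was at -111 bases from the transcript start of that annotation, which differs from the start used for the E-box positions. CLOCK signal there, in tags per 10000000 tags, was 20.8 in control (95% Poisson interval 9.27 to 40.3, from 8.5 tags) and 68.1 in 6AN (46.3 to 96.7, from 31 tags), a ratio of 3.27. BMAL1 signal was 44.9 (31.0 to 62.9) and 50.02 (35.7 to 68.2), and these intervals overlapped. The log2 change of CLOCK signal was 1.66, above that of 82.7% of the 439 sites, whose median was 1.10, and that of BMAL1 was 0.15, above that of 24.8% of sites with a median of 0.46. The sites were chosen by their peaks in 6AN, so a higher CLOCK signal in 6AN is in part what the list selected.

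H3K9ac, a mark of active promoters that SIRT1 and SIRT6 can remove, gave a signal of 199 in control (132 to 287) and 228 in 6AN (187 to 275) at this site. H3K4me3, another promoter mark, gave 273 (219 to 337) and 289 (242 to 342), and the input gave 12.8 (9.22 to 17.2) and 13.5 (7.17 to 23.03). For these marks and the input the intervals overlapped, and a difference was not tested. H3K9ac in control was higher than at 87.9% of the sites, but the control input was also higher than at 86.6% of them. In 6AN these shares were 92.3% for H3K9ac and 59.5% for the input. The intervals cover counting error only, and with 1 library per antibody and condition there is no replicate and no test.

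**Figure D5:**
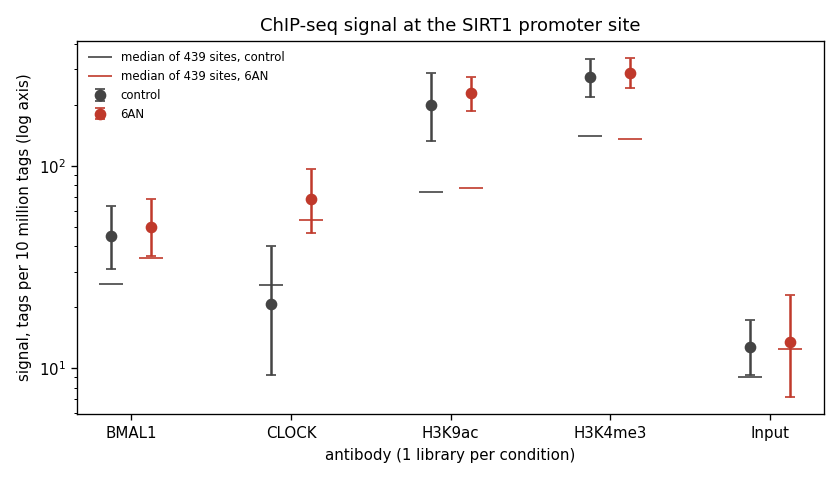
ChIP-seq signal at the SIRT1 site in tags per 10000000 tags (y axis, log axis) for each antibody and the input (x axis), in control (grey) and 6AN (red). Points are single libraries with 95% Poisson intervals, dashes are medians of the 439 sites, and CLOCK, at 20.8 and 68.1, is the 1 antibody whose intervals do not overlap.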

How the data were processed

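RNA-seq was performed at 12 time points in control and in 6AN, and ChIP-seq in 10 libraries. Per the labels, reads were aligned to hg38 with Bowtie, TopHat or Bowtie2 and processed with Cufflinks and HOMER. The authors deposited FPKM per locus, with 1 table per condition normalized on its own, so no test was made between conditions. The authors also deposited ChIP-seq signal at shared BMAL1/CLOCK sites, scaled to 10000000 tags per library, and a HOMER peak score for each merged peak. The number of unused sample columns was 0. RNA was extracted in triplicate per the methods, whereas the tables hold 1 library per condition and time point, and whether extracts were pooled is not stated. Read totals of the RNA-seq libraries are not given in the sources used here.

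Levels were compared as log2(FPKM + 1), in loci with a mean of at least 0.7 FPKM. The umbrella permutation test used 4000000 random orders and 18 shapes. Slopes per 24 hr were fitted with limma 3.58.1 (R 4.3.3) and adjusted by Benjamini-Hochberg over all 14678 loci. The remaining steps ran in Python 3.11.15 with pandas 2.3.3, SciPy 1.17.1, NumPy 2.4.6 and, for plots, matplotlib 3.10.9. Scripts were tested on simulated data. Alternatives were another pseudocount, filter, scaling, threshold, model and peak window, and each time point left out in turn.

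The sirtuins and the 5 gene lists were chosen with earlier results of these data known. Named genes were the sirtuins, in each list the 3 genes with the largest mean log2 ratio in size and those called over time, the 3 loci most like each sirtuin, and ARNTL, NR1D1, PER2 and NAMPT. Some genes that this rule selects are not reported here. Genes named only to complete a count, or for overlap with a sirtuin locus, were chosen after their values were seen.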

Additional observations from a re-analysis of the deposited data

How the results depend on the processing

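SIRT1 and SIRT2 were the 2 sirtuins higher at all time points, and the 2 without overlap, also after each library was set to a common median. The number of sirtuins called with a time trend in 6AN was 1, but 2 without cosine and sine terms, where the SIRT2 slope of -0.19 passed (limma adjusted p = 0.0351), and it ranged from 1 to 2 when single time points were left out. The second was SIRT2 without the 20 hr library (adjusted p = 0.0459) or the 36 hr library (adjusted p = 0.0346). The SIRT6 slope in 6AN passed under every alternative run, from -0.31 to -0.22. Within 50 kb instead of 5 kb, 3 sirtuins had a BMAL1 peak in control and 4 had a CLOCK peak in 6AN. The share of expressed loci with a peak within 50 kb was not computed, so counts in this window have no background to be read against. Slopes that were not called changed sign when single time points were left out for SIRT2 in control (-0.070 to 0.026), SIRT4 in control (-0.24 to 0.15) and SIRT3 in 6AN (-0.014 to 0.073), and the cause was not tested. The mean log2 ratio of SIRT3, -0.03, was 0.0054 with a common median. In all, 336 values for single genes kept their side of the threshold or, with no test, moved by less than the spread over time points, and 72 values for whole comparisons stayed within 1.5 times for counts or within the spread over time points for ratios. Among these 72, separated pairs of neighbours ranged from 7 to 9, sirtuins with a BMAL1 peak in 6AN were 4 within 50 kb, and the family median ranged from 0.11 to 0.35. No paired test was made between 6AN and control, because the tables were normalized separately. Ratios were taken between libraries of the same time label. CLOCK at SIRT1 in control rests on 8.5 tags.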

Other observations

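Peaks farther than 5 kb from the sirtuin loci were present for 3 genes. A CLOCK peak of 6AN lay 10402 bases from the deposited SIRT4 locus, at chr12:120291719-120291919, which spans the RefSeq gene start of SIRT4 at 120291780. Around SIRT2, a BMAL1 peak of both conditions, a CLOCK peak of 6AN and a BMAL1 peak of 6AN lay 28966, 26450 and 21471 bases from the locus. Around SIRT7, 4 peaks lay 9547 to 49760 bases away, of which 1 was shared by BMAL1 and CLOCK in 6AN. Within 50 kb of SIRT3 and of SIRT5 there were no peaks in any of the 4 lists. Which genes these peaks act on was not tested.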
